A study of Canis lupus familiaris with 9 samples.

Results

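The genes described here encode the subunits of the AMP-activated protein kinase, AMPK, and 3 proteins that act with it as energy sensors, in skeletal muscle of dogs fed to different extents. The 10 genes were listed by name: the catalytic subunits PRKAA1 and PRKAA2, the scaffold subunits PRKAB1 and PRKAB2, the nucleotide-binding subunits PRKAG1, PRKAG2 and PRKAG3, the upstream kinases STK11 (LKB1) and CAMKK2, and the deacetylase SIRT1. They are 10 of the 15115 genes that had a symbol of their own on the array. They were covered by 23 probe sets, groups of short probes that are read together as a single value. For a gene with several, the set of highest average over the 9 dogs leads, and the others stand beside it.

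AMPK is a complex of a catalytic, a scaffold and a nucleotide-binding subunit, and it is switched on when AMP and ADP rise against ATP, as in contracting or fasted muscle. LKB1 phosphorylates the activation loop of the catalytic subunit, and the calcium-dependent kinase CAMKK2 can do the same when calcium rises. Active AMPK favours glucose uptake and fat oxidation and restrains fat and protein synthesis, while SIRT1 reads the level of NAD and deacetylates PGC-1 alpha and LKB1. Most of this control acts on the proteins and not on their transcripts, and only transcripts were measured.

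The dogs were 9 intact female beagles aged 4 years, each with 1 Affymetrix canine array. In the ad libitum group 5 dogs (numbers 2, 5, 6, 7 and 8) ate without restriction for 24 weeks, and in the control group 4 dogs (numbers 1, 3, 4 and 9) were fed to hold their starting body weight. All ate the same commercial diet, assignment was random, and the muscle was sampled at 24 weeks after a night without food. The labels do not name the muscle. RNA was measured from muscle tissue and not from single fibres or cells. A difference in fibre make-up and a difference within fibres therefore cannot be told apart, and neither can fewer cells of a type and less RNA per cell.

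Values are on the log2 scale, so a difference of 1 is a 2-fold difference, and they ran from 0.652 to 16.6 over all arrays. With 9 arrays the precision is modest: over the 18394 probe sets tested, those above a log2 value of 4 on at least 4 arrays, the standard error of the group difference had a median of 0.20. Of these, 0 passed an adjusted p of 0.05 in limma, that is 0% of those tested, and 1088 (5.91%) had an unadjusted p under 0.05. The array pairs correlated at r = 0.934 to 0.981. Muscle markers were high on every array, among them the actin ACTA1 between 16.4 and 16.5 and myoglobin, MB, between 15.7 and 15.9, while albumin, ALB, a liver marker, lay between 3.23 and 4.63.

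Of the 10 genes, 8 passed the filter on low values, through 16 of the 23 probe sets. In limma 0 of the 8 passed an adjusted p of 0.05, and 0 had an unadjusted p under 0.05, where 5.91% of all tested probe sets did. The groups overlapped for each of the 8, and they did not overlap for 1.44% of all tested probe sets. The ad libitum mean was the higher for 4 genes (PRKAA1, PRKAB1, PRKAG1 and PRKAG2) and the lower for 4 (PRKAA2, PRKAB2, PRKAG3 and STK11), and the sign turned under at least 1 alternative for PRKAA1 (another probe set, -0.055), PRKAG1 (adipocyte covariate, -0.071) and PRKAG2 (array weights, -0.10). The median log2 difference of the 8 was -0.043, beside -0.0082 over all tested probe sets. The adjusted p-values ran from 0.796 to 0.926 (limma). For 5 genes the 95% interval of the difference lay within a 2-fold difference either way, and for PRKAA2, PRKAB2 and PRKAG2 it reached beyond.

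**Figure D1:**
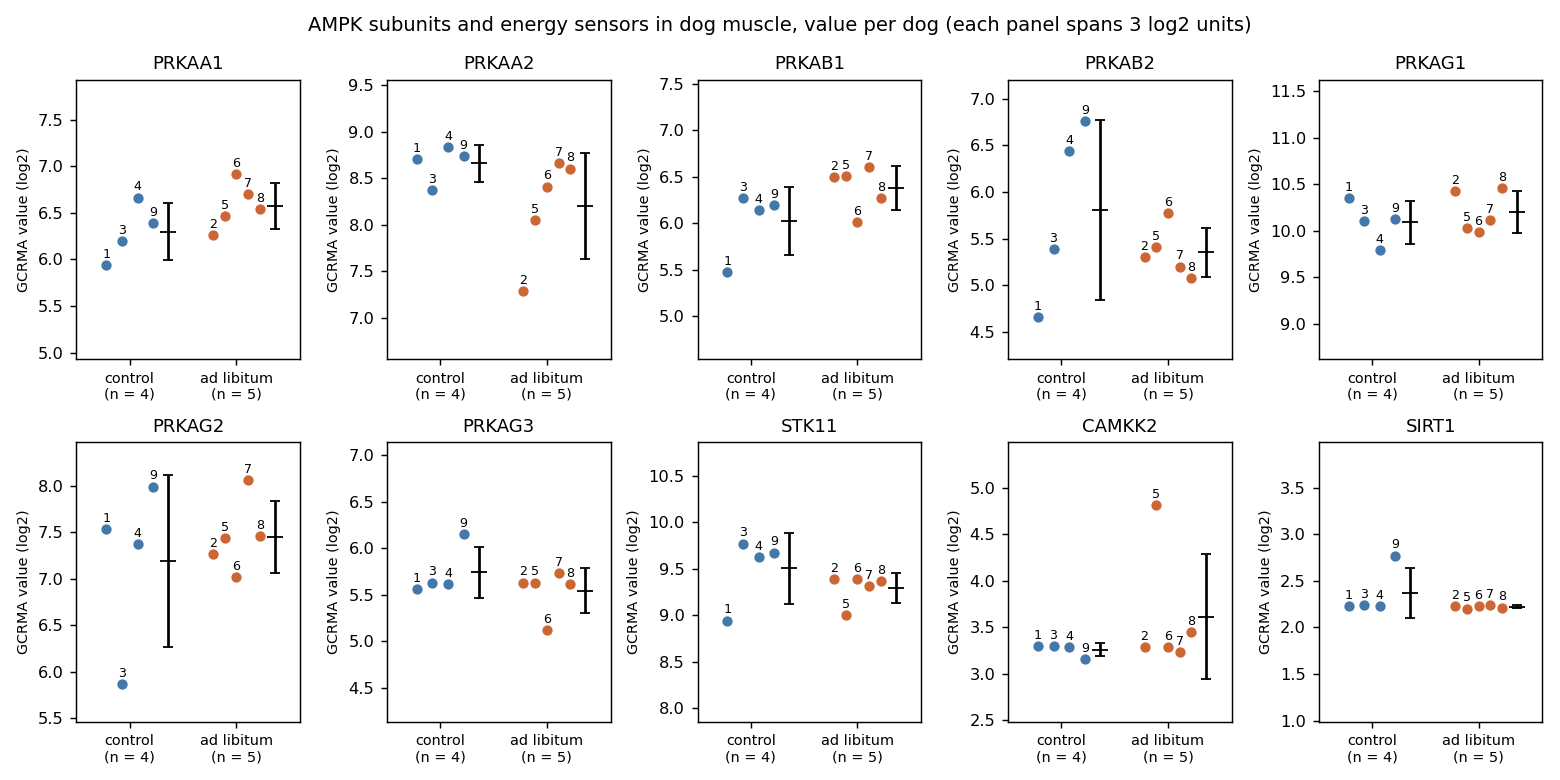
GCRMA value (log2) of each gene's leading probe set, by dog (points, labelled with the dog's number), with mean and SD to the right of each group of 4 control or 5 ad libitum dogs. Each panel spans 3 log2 units. The groups overlap in every panel, and PRKAG3, CAMKK2 and SIRT1 are nearly flat in most dogs.

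PRKAA2 encodes the catalytic subunit that predominates in skeletal muscle. Its single probe set read 7.29, 8.05, 8.41, 8.67 and 8.61 in ad libitum dogs 2, 5, 6, 7 and 8, and 8.71, 8.38, 8.83 and 8.74 in control dogs 1, 3, 4 and 9. Dogs 2 and 5 lay below all controls, and the other 3 ad libitum dogs lay among them. The means were 8.20 ± 0.57 (SD, n = 5) and 8.66 ± 0.20 (SD, n = 4), a log2 difference of -0.46 (SE 0.27, 95% interval -1.08 to 0.15, adjusted p = 0.799, limma). This was the largest difference among the 8 genes, and without dog 2 it was -0.23. When the mean level of adipocyte markers entered the fit as a covariate, it was -0.12.

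PRKAA1 encodes the other catalytic subunit, which is found in most tissues. Its leading probe set read 6.26, 6.47, 6.92, 6.70 and 6.54 in ad libitum dogs 2, 5, 6, 7 and 8, and 5.94, 6.20, 6.67 and 6.39 in control dogs 1, 3, 4 and 9. Of the ad libitum dogs, 4 of 5 were above the control mean, and only dogs 6 and 7 were above all controls. The log2 difference was 0.28 (SE 0.18, 95% interval -0.13 to 0.68, adjusted p = 0.806, limma). The other PRKAA1 probe sets gave 0.16 and -0.055, so the direction of PRKAA1 depended on the probe set. These sets were dim, at 3.65 to 5.23 and 4.18 to 4.54 over the 9 dogs, close to the filter value of 4. For the leading set, leaving out a dog gave 0.16 (without control dog 1) to 0.40 (without control dog 4). Over the 9 dogs no relation between the leading set and the others passed (r = 0.437 and -0.188, exact permutation p = 0.244 and 0.63, adjusted 0.298 and 0.693 over 11 pairs of probe sets, rho = 0.477 and -0.136 with p = 0.198 and 0.738). Without dogs 1 and 6, r was 0.862 and 0.503.

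PRKAB1 and PRKAB2 encode the scaffold subunits, which hold the complex together and bind glycogen, and PRKAB2 is the form that is abundant in muscle. PRKAB1 read 6.50, 6.51, 6.01, 6.60 and 6.27 in ad libitum dogs 2, 5, 6, 7 and 8 and 5.48, 6.27, 6.14 and 6.20 in control dogs 1, 3, 4 and 9. Control dog 1 stood below the rest, and 3 of 5 ad libitum dogs were above all controls. The log2 difference was 0.36 (SE 0.19, 95% interval -0.081 to 0.79, adjusted p = 0.796, limma), the lowest p of the 8 genes (0.0989 unadjusted). Without control dog 1 it was 0.17. The other tested PRKAB1 probe sets gave 0.089 and 0.030, and the first of them was nearly constant, with 5 of 9 dogs within 0.0091 log2 units.

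The widest spread between control dogs in the scaffold subunits was in PRKAB2. Its probe set read 4.65, 5.38, 6.44 and 6.76 in control dogs 1, 3, 4 and 9, and 5.30, 5.41, 5.77, 5.20 and 5.08 in ad libitum dogs 2, 5, 6, 7 and 8. All 5 ad libitum dogs lay inside the range of the controls, below their mean. This gave a log2 difference of -0.46 (SE 0.40, 95% interval -1.35 to 0.44, adjusted p = 0.862, limma). It depended on which control was kept, at -0.84 without dog 1 (unadjusted p = 0.025, adjusted p = 0.797, where the adjusted p ran from 0.671 to 1 over the alternatives) and -0.14 without dog 9. The spread within groups, an SD of 0.67, was wider than that of 92.0% of tested probe sets.

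**Figure D2:**
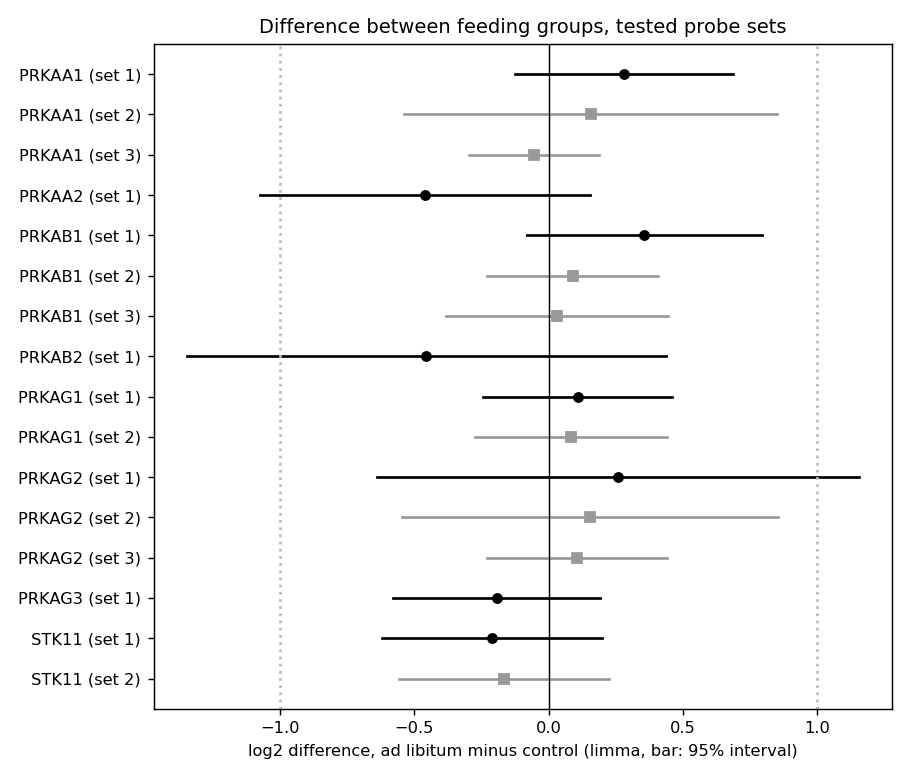
Log2 difference, ad libitum minus control, with its 95% interval (limma) for the 16 tested probe sets, where set 1 (black circles) is the gene's leading probe set and the others are grey squares. Dotted lines mark a 2-fold difference. Every interval includes 0, and those of PRKAA2, PRKAB2 and PRKAG2 (set 1) pass a dotted line.

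The nucleotide-binding subunits sense AMP, ADP and ATP, and PRKAG1 is the form found in most tissues. PRKAG1 read 10.42, 10.03, 9.98, 10.12 and 10.46 in ad libitum dogs 2, 5, 6, 7 and 8 and 10.35, 10.11, 9.79 and 10.13 in control dogs 1, 3, 4 and 9. The dogs of both groups were interleaved. The group means differed by 0.11 (SE 0.16, 95% interval -0.24 to 0.46, adjusted p = 0.921, limma), the smallest of the 8 genes. It was 0.0062 without control dog 4 and 0.19 without control dog 1. The other PRKAG1 probe set gave 0.083 and followed the first from dog to dog (r = 0.81 over 9 dogs, exact permutation p = 0.00944, adjusted 0.0208, rho = 0.817 with p = 0.0108). Without dogs 4 and 8, the farthest from the median, r was 0.674.

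PRKAG2, known for mutations that cause glycogen storage in the heart, varied most between dogs. Its leading probe set read 7.27, 7.44, 7.01, 8.06 and 7.46 in ad libitum dogs 2, 5, 6, 7 and 8 and 7.54, 5.87, 7.37 and 7.99 in control dogs 1, 3, 4 and 9. Control dog 3 was lowest by more than 1 log2 unit, and ad libitum dog 7 was highest. The log2 difference was 0.26 (SE 0.40, 95% interval -0.64 to 1.15, adjusted p = 0.926, limma), and without control dog 3 its sign turned (-0.18).

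The same dogs stood apart in the other tested PRKAG2 probe sets. Dog 3 read 5.00 and 4.69, the lowest of the 9 in both, and dog 7 read 6.70 and 5.46, the highest in both. The leading set correlated with them at r = 0.976 and 0.812 over 9 dogs (exact permutation p = 5.51e-05 and 0.0248, adjusted 0.000606 and 0.0454 over 11 pairs, rho = 0.883 and 0.778 with p = 0.00308 and 0.0174). Without dogs 3 and 7, r was 0.901 and 0.683. The other 3 PRKAG2 probe sets were below the log2 value of 4 on all arrays. The SD within groups of the leading PRKAG2 set was 0.67, wider than the difference between the group means.

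PRKAG3 encodes the nucleotide-binding subunit of fast glycolytic muscle and is hardly made elsewhere. Its probe set read 5.63, 5.63, 5.12, 5.73 and 5.61 in ad libitum dogs 2, 5, 6, 7 and 8 and 5.57, 5.63, 5.61 and 6.15 in control dogs 1, 3, 4 and 9. All dogs but 6 and 9 lay close together, and 5 of 9 fell within 0.019 log2 units, where 5.73% of tested probe sets had a narrower band and the median was 0.21. The log2 difference was -0.19 (SE 0.17, 95% interval -0.58 to 0.19, adjusted p = 0.864, limma). Leaving out control dog 9 gave -0.057, and leaving out ad libitum dog 6 gave -0.088. PRKAG3 and the mean of the fast fibre markers correlated at r = 0.489 (exact permutation p = 0.166, adjusted 0.666 over 20 relations, rho = 0.628 with p = 0.0773) over 9 dogs, and at 0.634 without dogs 8 and 9.

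STK11 encodes LKB1, the main kinase upstream of AMPK in muscle. Its leading probe set read 9.39, 9.00, 9.39, 9.31 and 9.37 in ad libitum dogs 2, 5, 6, 7 and 8 and 8.94, 9.77, 9.63 and 9.67 in control dogs 1, 3, 4 and 9. All ad libitum dogs were below 3 of the controls, and control dog 1 was below all dogs of both groups. The log2 difference was -0.21 (SE 0.18, 95% interval -0.62 to 0.20, adjusted p = 0.862, limma). Without control dog 1 it was -0.40 (unadjusted p = 0.0153, adjusted p = 0.797, range over the alternatives 0.67 to 1), without control dog 3 it was -0.12, and with the adipocyte covariate it was -0.034. The other STK11 probe set gave -0.17 and followed the first across dogs (r = 0.949 over 9 dogs, exact permutation p = 0.000537, adjusted 0.00296, rho = 0.85 with p = 0.00607, and r = 0.847 without dogs 1 and 5).

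**Figure D3:**
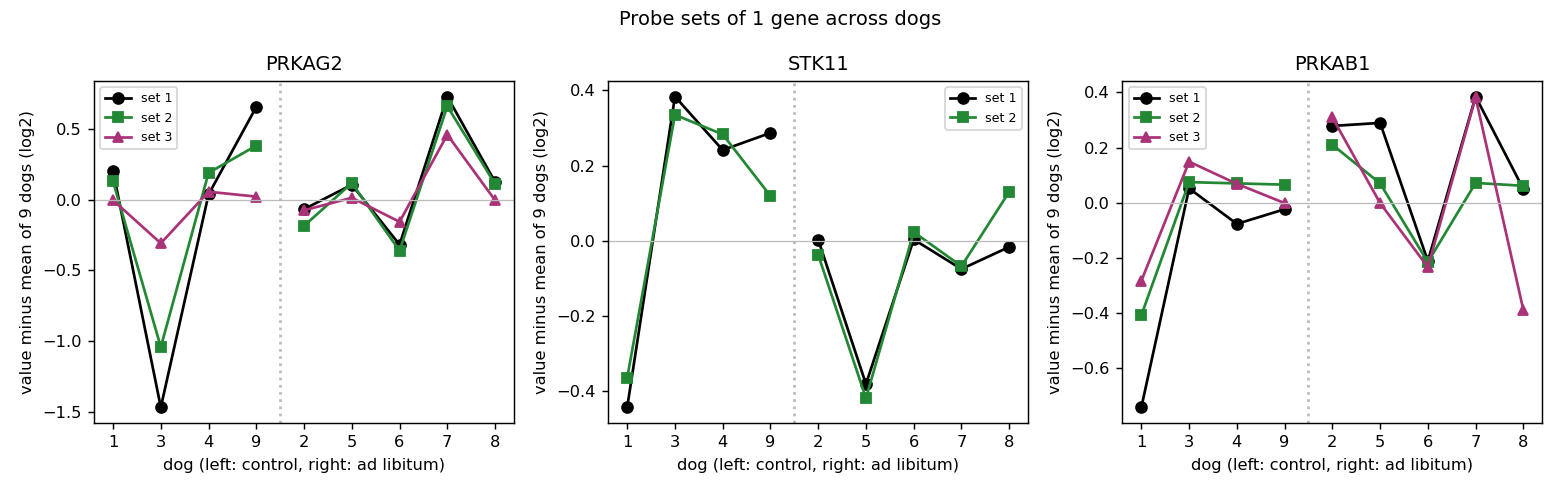
Value minus the mean of the 9 dogs (log2) for each tested probe set of PRKAG2, STK11 and PRKAB1, with control dogs left and ad libitum dogs right of the dotted line. The low value of dog 3 and the high value of dog 7 recur in the PRKAG2 sets, and the low values of dogs 1 and 5 recur in both STK11 sets.

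CAMKK2 and SIRT1 did not pass the filter, so no test is given for them. CAMKK2 read 3.16 to 3.30 in control dogs and 3.23 to 4.81 in ad libitum dogs, with only dog 5 above the log2 value of 4. Its other probe set lay between 2.09 and 2.41. SIRT1 read 2.20 to 2.24 in ad libitum dogs and in 3 of the control dogs 2.23 to 2.24, and control dog 9 read 2.77. A difference in CAMKK2 or SIRT1 was not detectable at these levels, and how much of the RNA was present cannot be read from them.

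Because the paralogues of a subunit replace each other in the complex, the difference between them was taken within each dog. Its absolute level has no meaning, since it depends on the probes, but it can be set against the same difference in other dogs. PRKAA2 minus PRKAA1 was 1.02, 1.58, 1.49, 1.97 and 2.06 in ad libitum dogs 2, 5, 6, 7 and 8, and 2.76, 2.18, 2.17 and 2.35 in control dogs 1, 3, 4 and 9. All 5 ad libitum dogs were below all 4 controls. The group means were 1.63 ± 0.42 (SD, n = 5) and 2.37 ± 0.28 (SD, n = 4), a shift of -0.74 that ran from -0.85 to -0.59 when a dog was left out. When PRKAA2 was set in the same way against each of 7533 other tested genes, the groups did not overlap for 4.63% of them. No test was made of it, and with the other PRKAA1 probe sets the shift was -0.62 and -0.41, with 4 and 2 of 5 ad libitum dogs below all controls. The second of these sets varied little (4.18 to 4.54), so its shift largely repeats that of PRKAA2 alone (-0.46).

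PRKAB2 minus PRKAB1 was -1.19, -1.10, -0.23, -1.40 and -1.19 in ad libitum dogs 2, 5, 6, 7 and 8, and -0.82, -0.89, 0.30 and 0.56 in control dogs 1, 3, 4 and 9. Here 4 of 5 ad libitum dogs were below all controls, and dog 6 lay among them. The shift of -0.81 ran from -1.04 to -0.55 when a dog was left out, and control dogs 4 and 9 were above all other dogs. With each of the other tested PRKAB1 probe sets the direction held, but the shift was smaller and fewer ad libitum dogs were below all controls. The own group differences of those sets were 0.089 and 0.030, against 0.36 for the leading set. No background share was taken for PRKAB2. In the nucleotide-binding subunits PRKAG3 minus PRKAG1 shifted by -0.30 and PRKAG2 minus PRKAG1 by 0.15, with overlapping groups, and the second turned sign without control dog 3 (-0.29) or ad libitum dog 7 (-0.024). For the leading probe sets, then, PRKAA2 minus PRKAA1, PRKAB2 minus PRKAB1 and PRKAG3 minus PRKAG1 had lower ad libitum means. Only for PRKAA2 minus PRKAA1 did the groups not overlap. The shifts against PRKAA1 and PRKAB1 were smaller with their other tested probe sets. PRKAA2 and PRKAB2 are the forms typical of muscle, and PRKAA1 and PRKAB1 are the widespread ones, but a shift between such forms was not tested. No single gene of these passed the test.

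**Figure D4:**
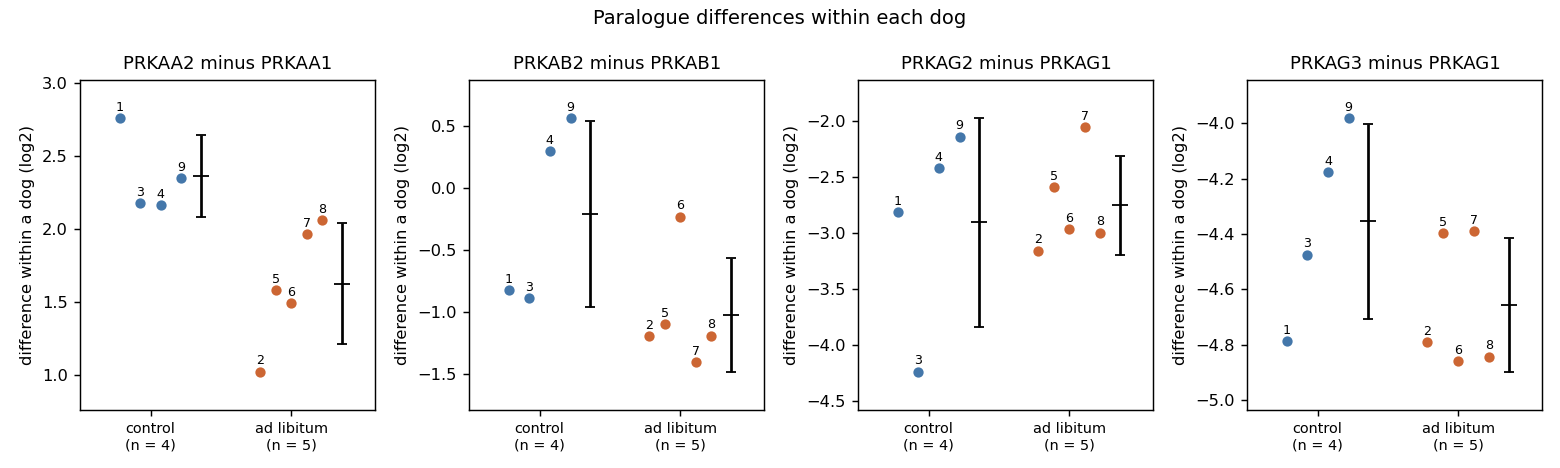
Difference between paralogues of a subunit within each dog (log2), by group, with mean and SD to the right of the points and dog numbers above them. For PRKAA2 minus PRKAA1 all ad libitum dogs (1.02 to 2.06) lie below all control dogs (2.17 to 2.76), and the groups overlap in the other panels.

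Other genes around AMPK were read from lists of 70 genes, of which 65 were on the array under these symbols and 44 were tested. Of the 44, 25 were higher and 19 lower in ad libitum muscle with a median log2 difference of 0.045. In limma 0 passed an adjusted p of 0.05, and 2 (4.55%) had an unadjusted p under 0.05, against 5.91% of all tested probe sets. MARK1, 1 of the 2, passed the filter only through the ad libitum dogs, and among the other 43 genes 1 (2.33%), PARP2, had such a p. The groups did not overlap for 1 of the 44 (2.27%), PARP2, beside 1.44% of all tested probe sets.

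Among partners of LKB1 and other regulators of AMPK, 6 of 7 tested genes were higher, with a median log2 difference of 0.11 and 0 with an unadjusted p under 0.05. The LKB1 scaffold CAB39 had 0.12 and its pseudokinase partners STRADA and STRADB had 0.071 and 0.11. The catalytic subunits of protein phosphatase 2A, PPP2CA and PPP2CB, which can dephosphorylate AMPK, had 0.12 and 0.14, its scaffold subunit PPP2R1A had 0.093, and the phosphatase PPM1A had -0.086. Of the kinases related to AMPK that LKB1 also activates, 5 of 12 were tested. MARK1 read 3.88 to 4.94 in ad libitum and 3.79 to 3.99 in control dogs, and its means differed by 0.63 (SE 0.20). All MARK1 controls were below the filter, so the gene was admitted by the group where it was high, and its difference is a description. MARK3, SNRK, SIK3 and MARK2 had 0.10, 0.056, -0.12 and 0.028.

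Genes of AMPK substrates were higher in 5 and lower in 8 of 13 tested, with a median log2 difference of -0.045 and 0 with an unadjusted p under 0.05. The Rab GTPase-activating proteins of glucose transport, which AMPK phosphorylates, had mean differences of opposite sign. TBC1D4 averaged 5.62 ± 0.41 (SD, n = 5) against 6.23 ± 0.75 (SD, n = 4), a difference of -0.61 (SE 0.35), and TBC1D1 averaged 6.95 ± 0.66 against 6.40 ± 0.78, a difference of 0.55 (SE 0.42). FOXO3, a transcription factor of the fasting response, had -0.38 (SE 0.20), and PPARGC1A, the coactivator PGC-1 alpha, had -0.28 (SE 0.19). In these genes the adjusted p ran from 0.796 to 0.838 (limma).

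Among proteins that bind AMPK or respond to nutrient stress, 1 of 7 tested genes was higher and 6 were lower. The higher gene was TXNIP, an arrestin that restrains glucose uptake and is itself an AMPK target, with 14.2 to 14.5 in ad libitum and 13.3 to 14.2 in control dogs. Its log2 difference was 0.40 (SE 0.19, adjusted p = 0.796, limma). APPL1, an adaptor of adiponectin receptors, had -0.42 (SE 0.30), DDIT4, a stress-induced inhibitor of mTORC1, -0.64 (SE 0.64) and folliculin, FLCN, -0.12 (SE 0.14). The adiponectin receptors ADIPOR1 and ADIPOR2 had -0.028 and -0.0067.

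Of the sirtuins and genes of NAD metabolism, 9 of 12 tested were higher and 3 lower, with a median log2 difference of 0.13. PARP2, a DNA repair enzyme that consumes NAD, read 6.52 to 7.16 in ad libitum and 7.20 to 8.09 in control dogs, a difference of -0.66 (SE 0.21, unadjusted p = 0.0117, adjusted p = 0.796, limma). The mitochondrial deacylases SIRT3 and SIRT5 had 0.25 (SE 0.15) and 0.19 (SE 0.17), and the nicotinamide riboside kinase NMRK1 had 0.29 (SE 0.22). Both SIRT3 and SIRT5 were measured well above the filter, unlike SIRT1.

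**Figure D5:**
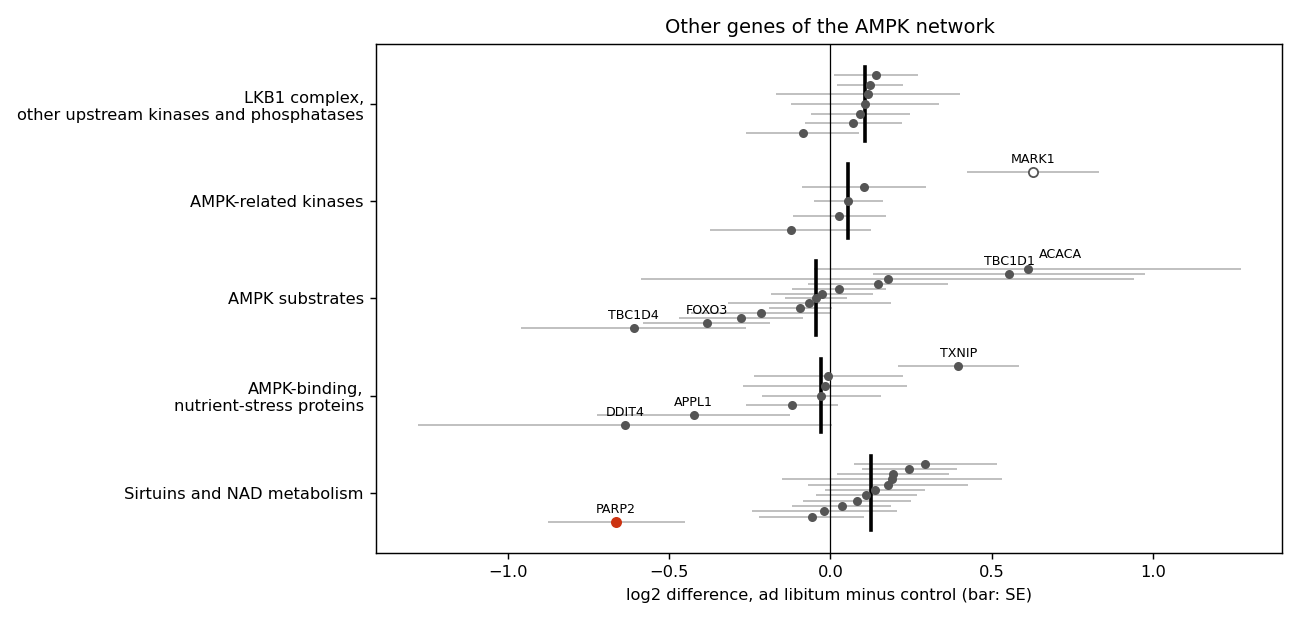
Log2 difference, ad libitum minus control, with SE for the 44 tested genes of 5 lists around AMPK, where thick bars are list medians red points have an unadjusted limma p under 0.05, and the open point is a gene that passed the filter through 1 group alone. PARP2 (-0.66) is the red point, MARK1 (0.63) the open one, and list medians lie between -0.045 and 0.13.

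Markers of other cell types are given beside these values. In limma 0 of them passed an adjusted p of 0.05, and the list means of the groups overlapped. All 10 tested adipocyte markers, 5 of 5 tested macrophage markers and 8 of 8 fibroblast markers had the higher mean in the ad libitum group, with list means of 7.60 to 9.78 against 6.79 to 8.70, 5.50 to 9.11 against 5.14 to 6.25 and 8.23 to 12.2 against 8.11 to 9.34. Of these lists, 5 of 10 macrophage markers did not pass the filter, and log2 values from GCRMA have no true 0. An unadjusted limma p under 0.05 was found for 3 of 10 adipocyte, 3 of 5 macrophage and 4 of 8 fibroblast markers. It was found for 0 tested fast fibre, slow fibre and endothelial markers and for 5.91% of all tested probe sets. The groups did not overlap for 1 of 10 adipocyte markers, LEP, at 5.86 to 8.87 in ad libitum and 4.02 to 5.70 in control dogs. They overlapped for every tested marker of the other lists, and did not overlap for 1.44% of all tested probe sets. All 13 tested fast fibre markers had lower means (list mean 13.3 to 14.5 against 14.1 to 14.6), and 8 of 8 slow fibre markers had higher means. Endothelial markers were higher in 4 and lower in 4 of 8. Their part in the values of the AMPK genes was not tested beyond the covariates given here. With the fast fibre mean as covariate no tested AMPK gene turned sign, and 0 had an unadjusted limma p under 0.05. Under this covariate PRKAA2 had -0.47, PRKAA1 0.28 and PRKAB1 0.43. PRKAA2 and the adipocyte mean correlated at r = -0.662 over 9 dogs (exact permutation p = 0.0373, adjusted 0.666 over 20 relations, rho = -0.667 with p = 0.0589), at -0.75 without dogs 3 and 4, and at -0.511 as deviations from group means. Over the 9 dogs it was the only 1 of the 20 relations with an unadjusted p under 0.05, and 0 passed after adjustment. PRKAG2 and the adipocyte mean correlated at r = 0.094 over 9 dogs and at -0.92 without dogs 3 and 4. The 3' minus 5' value of GAPDH control probe sets, a sign of RNA quality, was 0.936 to 1.05 in ad libitum and 0.866 to 0.974 in control dogs, and the covariate moved PRKAG2 to 0.036, PRKAG1 to 0.040 and PRKAA2 to -0.31. With it PRKAB1 had 0.48, PRKAA1 0.28, PRKAB2 -0.54, PRKAG3 -0.13 and STK11 -0.20.

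The genes most like each AMPK gene over the 9 dogs were looked up by Pearson's r among 7526 tested genes, as a description. PRKAA2 was most like C4H5orf22 (r = 0.972), TNPO3 (r = 0.964) and NSA2 (r = 0.963). PRKAA1 was most like ACSL1, a long-chain acyl-CoA synthetase, at r = 0.942, then UCHL1 (r = 0.917) and ZW10 (r = 0.906). PRKAB1 was most like SLC50A1, a sugar transporter, at r = 0.944, then AQP7, a glycerol channel, at r = 0.91 and BAK1 (r = 0.908). PRKAB2 was most like PNO1 (r = 0.922), ZNF740 (r = 0.915) and SS18 (r = 0.912). Among the nucleotide-binding subunits, PRKAG1 was most like CRTAC1 (r = 0.92), TNS2 (r = 0.915) and KANK3 (r = 0.903). PRKAG2 was most like the ubiquitin ligase UBR2 (r = 0.947), ARHGEF6 (r = 0.925) and CHRAC1 (r = 0.891). PRKAG3, whose values moved mainly in dogs 6 and 9, was most like LIFR, a cytokine receptor, at r = 0.941, then KRT76 (r = 0.928) and PPIL4 (r = 0.915). STK11 was most like PRMT5, an arginine methyltransferase, at r = 0.944, then SLC25A44 (r = 0.918) and VDAC3 (r = 0.917). Each r was picked among the highest of 7526 over the same 9 dogs.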

How the data were processed

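RNA was extracted with Trizol and hybridised as biotin-labelled cRNA, 1 array per dog, per the labels' protocols. The authors deposited GCRMA values, per the submitters' processing notes, and the log2 scale was taken from their range. GCRMA normalizes by quantiles, so a shift of most transcripts together would not appear, and its background step can set dim probe sets to near-constant values. Of 43035 probe sets, 111 controls were left out and 18394 passed the filter. Symbols came from the platform annotation, which can be old: 29264 probe sets had 1 symbol and 439 several. In the RefSeq gene table of UU_Cfam_GSD_1.0, 9 of the 10 genes matched by Entrez ID and 10 by symbol.

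Groups came from the treatment label; the dogs are separate animals, and no batch is named. The group difference was estimated by limma (version 3.58.1, R 4.3.3) with lmFit and eBayes, two-sided, with no covariate and 7 residual and 2.32 prior degrees of freedom, and p-values were adjusted by Benjamini-Hochberg over all tested probe sets. The fit was tested on simulated data. Correlations over dogs used two-sided exact permutation of pairings. The genes and lists were chosen with earlier results of these data known. Named were the 10 genes, up to 4 genes per list by lowest p, and the genes most like each. CAB39, STRADA, STRADB, MARK2, ADIPOR1 and ADIPOR2 fall outside that rule and were chosen after their values were seen, as were the correlations between probe sets, the width of the narrowest band, and the background for PRKAA2 minus PRKAA1. Alternatives were other filters, a floor, cyclic loess, median centring, an intensity trend, array weights, covariates, other probe sets and leaving out each dog, with an unmoderated test and the GAPDH covariate added after seeing the data.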

Additional observations from a re-analysis of the deposited data

Results flagged for a closer look

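Single dogs stood far from the rest of their group in 11 of 44 groups of values checked. The limit used would flag about 5% of groups if values were independent and normally distributed. Some groups here are near-constant and several share a gene, so the count is only a description. Control dog 1 was low in PRKAB1, at 5.48 in the leading probe set (nearest dog 6.14) and 5.52 in the second (nearest 5.99). In a PRKAG2 probe set ad libitum dog 7 was high at 5.46 (nearest 5.02) and control dog 3 low at 4.69 (nearest 5.00). PRKAG3 was low in ad libitum dog 6 at 5.12 (nearest 5.61) and high in control dog 9 at 6.15 (nearest 5.63). STK11 was low in ad libitum dog 5 at 9.00 (nearest 9.31). CAMKK2 was high in ad libitum dog 5 at 4.81 (nearest 3.45) and slightly low in control dog 9 at 3.16 (nearest 3.28). SIRT1 was high in control dog 9 at 2.77 (nearest 2.24). PRKAB2 minus PRKAB1 was high in ad libitum dog 6 at -0.23 (nearest -1.10). The second PRKAB1 set and the PRKAG3, CAMKK2 and SIRT1 sets were nearly constant in most of the other dogs. The checks also overlap, since several read the same gene.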

How the results depend on the processing

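Over 171 values of the 8 tested genes under the alternatives, 0 passed an adjusted p of 0.05 (limma, 0.479 to 1), 167 kept their direction and 4 turned. PRKAA1 gave -0.055 with its probe set of lowest mean, PRKAG1 -0.071 with the adipocyte covariate, and PRKAG2 -0.10 with array weights. Leaving out a dog moved PRKAG2 between -0.18, without control dog 3, and 0.52. The number of the 8 genes with an unadjusted p under 0.05, 0 with all dogs, was 2 with the adipocyte covariate (PRKAA1 at 0.52 and PRKAB1 at 0.61) and 0 to 2 with a dog left out (PRKAB2 and STK11 without control dog 1, PRKAB1 without ad libitum dog 6). Over all probe sets the number with an adjusted p under 0.05 was 1 with the floor at log2 4 and 0 to 1 with a dog left out. The 1088 with an unadjusted p under 0.05 became 1865 with array weights, 463 with the adipocyte covariate, 643 with the GAPDH covariate, 863 with the unmoderated test, and 695 (without ad libitum dog 5) to 2151 (without ad libitum dog 7) with a dog left out. The cause of these shifts was not tested. Low signal limits CAMKK2 and SIRT1, which did not pass the filter.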
